A study of Mus musculus with 19 samples.

Results

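The mitochondrial chromosome (chrM) carries its own small set of genes, and 36 of the 24130 Ensembl genes given in any library of mouse primary somatosensory cortex (S1) lie on it. They were chosen by chromosome alone and comprise 2 rRNA genes, 20 tRNA genes, 13 protein genes and 1 gene without a symbol (ENSMUSG00000076442, chrM 16115 to 16209). Positions are those of mm9 unless GRCm38 is named. All 36 were listed in A, B2, C, D and E, 35 in B1 and 33 in F, while mt-Ti and mt-Tw of the reference annotation were listed in none. Samples came from 8 male C57BL/6J mice aged P56, 2 litters of 4, whose S1 was dissected into 6 adjacent segments from the surface inward. A was mostly layers 1 to 3, B mostly layer 4, C and D mostly layer 5, E mostly layer 6 and F mostly layer 6b, so a segment is a piece of tissue and not a cell type. B1 and B2 pooled the 4 mice of a litter each, and the other 5 segments had 1 library from all 8 mice, so that only B1 and B2 show variation between samples (n = 2). Dorsal and lateral cortex (12 samples) were left out and are not analysed here.

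The mitochondrial genome is a small circle transcribed from both strands as long RNAs, which are cut largely at the tRNAs that lie between the other genes. Its proteins are subunits of complexes I, III and IV, which pump protons out of the matrix, and of complex V, the ATP synthase, while all of complex II and most subunits of the other complexes are encoded in the nucleus. Most of its messenger RNAs and both rRNAs carry short poly(A) tails, and pieces of mitochondrial DNA have been copied into nuclear chromosomes in the course of evolution.

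Expression was given as FPKM (fragments per kilobase of model, scaled to the number of mapped fragments), a level per length, with a 95% interval that covers the estimate within 1 library and no difference between mice. Estimated from coverage, depth ran from 31.4 M fragments (A) to 75.3 M (B2). B1 and B2 differed in litter, in depth (49.2 M and 75.3 M) and in mean internal insert size (239 and 193 nt). These cannot be told apart in the differences between B1 and B2. The intervals of the 15 rRNA and protein genes were narrow in all libraries, from 0.378% of the FPKM for mt-Cytb to 15.0% for mt-Nd3. RNA longer than 200 nt was extracted and enriched for poly(A), and the library protocol marked no strand, so reads from the 2 strands cannot be told apart where RNA of both is present. In pooled tissue, fewer cells of a type and less RNA per cell cannot be told apart either. The summed FPKM of 11 oligodendrocyte markers was 344 in A and 12974 in F, that of 8 neuron markers lay between 1580 in A and 3408 in D, and that of 5 listed blood genes was 939 in A against 101 to 149 elsewhere. The 6 leptomeningeal markers summed to 37.5 in A and to 4.52 to 7.37 in the other libraries. The part of these differences in the values given next was not tested.

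Of the FPKM summed over genes, chrM held 21.8% in A and 5.03% in F, a ratio of 4.33. The 2 libraries of segment B, at 7.76% and 18.2%, had an SD of 7.41 percentage points (n = 2). The protein genes made up 79.3% (C) to 82.0% (B2) of the chrM FPKM and the rRNA genes 15.7% (A) to 19.4% (C), so the shares of these 2 classes varied less than the total did. The composition of the protein genes varied more. Complex I took 43.5% of the protein FPKM in A, 61.0% and 53.5% in B1 and B2, 56.9% and 53.4% in C and D, 50.7% in E and 52.9% in F. Complex IV took 27.9% in A, 10.3% and 15.2% in B1 and B2, 12.6% and 15.6% in C and D, 18.1% in E and 16.7% in F. The share of complex IV was thus highest where that of complex I was lowest. The 2 libraries of segment B differed by 4.85 percentage points in complex IV. Complex V ranged from 3.45% in B1 to 10.03% in A, and complex III, which is mt-Cytb alone, from 18.6% in A to 25.2% in F. All chrM genes of complex IV, mt-Atp6 and some of complex I have a near-identical nuclear copy, whole or in part, as described below. Without the genes with such a copy, complex I took 58.1% of the remaining protein FPKM in A and 65.4% and 59.8% in B1 and B2. It then took 62.2% and 60.7% in C and D, 59.4% in E and 60.0% in F, and no complex IV gene remained. mt-Atp8, which overlaps mt-Atp6, was kept among the remaining genes.

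**Figure D1:**
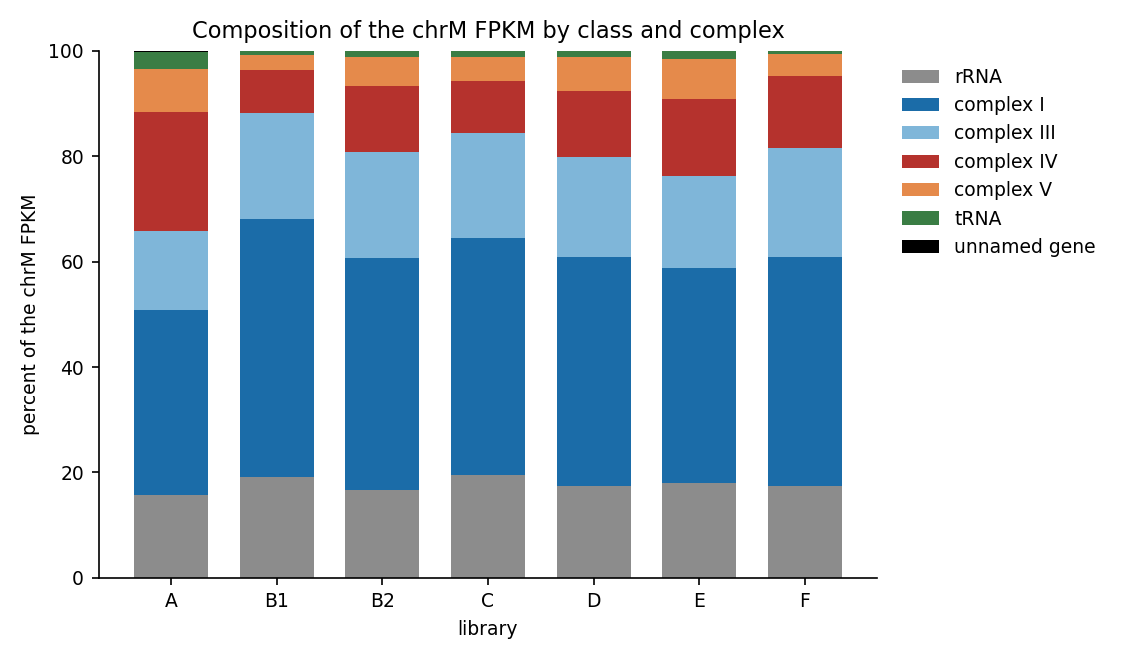
Percent of the chrM FPKM (y axis, from 0 to 100) taken by rRNA, by the protein genes of complexes I, III, IV and V, by tRNA and by the unnamed gene, in each of the 7 libraries (x axis). The rRNA part stays between 15.7% and 19.4%, whereas complex IV takes 22.6% in A and 8.24% in B1.

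The rRNA genes encode the RNAs of the mitochondrial ribosome. The small subunit rRNA mt-Rnr1 (chrM 70 to 1024) had FPKM of 4879 in A, 1711 and 3557 in B1 and B2, 2269 and 2158 in C and D, 1914 in E and 1248 in F. For the large subunit rRNA mt-Rnr2 (chrM 1094 to 2675) the FPKM were 7148, 2478, 5911, 3633, 3109, 2432 and 1621 in the same order. Both were highest in A and lowest in F, and B1 lay next to E rather than next to B2. The ratio of mt-Rnr2 to mt-Rnr1 was between 1.27 in E and 1.66 in B2.

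Complex I passes electrons from NADH to ubiquinone, and 7 of its subunits come from chrM. The mt-Nd1 (chrM 2751 to 3707) FPKM was 8637 in A, 4134 and 8272 in B1 and B2, 4985 and 4752 in C and D, 3505 in E and 2554 in F. mt-Nd2 (chrM 3914 to 4951) had 3441 in A, 1651 and 3774 in B1 and B2, 2037 and 2004 in C and D, 1468 in E and 984 in F, so that B2 and not A was its highest library. These 2 genes lie close to each other on chrM, and F was the lowest library for both. mt-Nd4 (chrM 10167 to 11544) had 4625 in A, 1596 and 3866 in B1 and B2, 1944 and 1819 in C and D, 1437 in E and 1099 in F. mt-Nd5 (chrM 11742 to 13565) had 4265 in A, 1492 and 4098 in B1 and B2, 2162 and 2038 in C and D, 1554 in E and 1291 in F. mt-Nd6 (chrM 13552 to 14070), the only protein gene on the minus strand, had 3679 in A, 1628 and 3928 in B1 and B2, 2242 and 1831 in C and D, 1354 in E and 977 in F. The ratio of mt-Nd5 to its neighbour mt-Nd6 ran from 0.917 in B1 to 1.32 in F. The span of mt-Nd6 overlaps that of mt-Nd5, and no strand was marked. Reads over mt-Nd6 can thus come from RNA of either strand, here and in the comparisons below. The last 2 subunits, mt-Nd3 and mt-Nd4l, differed from these 5 genes in level and in pattern and are described with complexes IV and V.

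Cytochrome b, encoded by mt-Cytb (chrM 14145 to 15288), is a subunit of complex III, the complex that hands electrons from ubiquinol to cytochrome c. The share of mt-Cytb in the chrM FPKM, 18.9% in the mean of the 7 libraries, was the largest of any chrM gene. It was 15.0% in A and between 17.5% and 20.7% elsewhere. B1 and B2 gave 20.15% and 20.18%, although the mt-Cytb FPKM itself was 2.60 times as high in B2. The next largest mean shares were those of mt-Nd1, from 11.2% in A to 19.0% in B1, and of mt-Rnr2, from 9.31% in A to 11.96% in C.

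In all, 7 chrM genes have a near-identical copy on chromosome 1 in the reference annotation, in which 5 of them are copied over at least 90% of their length at an identity of at least 99%. In GRCm38 these unprocessed pseudogenes form a block of 4663 bases, chr1:24611535-24616197, on the minus strand. Gm28661 matched mt-Co2 over 681 bases, Gm10925 matched mt-Atp6 over 678, Gm28437 matched mt-Co3 over 783 and Gm10222 matched mt-Nd4l over 294, all without a mismatch, and Gm28438 matched mt-Nd3 over 345 bases with 1 mismatch. Gm29216 held 483 bases of mt-Co1, which is 31.3% of that gene, and Gm28439 held 876 bases of mt-Nd4, or 63.6%. The copies follow each other in the order and spacing of chrM, with a deviation of at most 1 base. By this spacing mt-Atp8 falls at chr1:24614609-24614812, and the gap between Gm10925 and Gm28661 starts at 24614652. The end of mt-Atp8 that overlaps mt-Atp6 thus lies within Gm10925, in a stretch shorter than the 100 nt required of a copy here. The rest falls in the gap, where no copy was annotated. The gap was not compared because the reference held transcripts and no genome. The remaining 7 genes, which are both rRNA genes, mt-Nd1, mt-Nd2, mt-Nd5, mt-Nd6 and mt-Cytb, had no copy at this identity. The grouping by copies was chosen after values of these genes had been seen.

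The first 90 bases of mt-Nd4l and Gm10222, and of mt-Nd3 and Gm28438, are shown because reads of 50 nt would have to tell such pairs apart, and mt-Cytb with Gm11410 on chromosome 4, which differs from it at 81 of 1142 aligned bases, is shown for contrast. Sequences are those of the GENCODE M21 transcripts (GRCm38), 5′ to 3′, with capitals at bases that differ within a pair. In mt-Nd3 the difference is T3C, with the chrM base first and positions counted from 1 at the start of the gene, and the mt-Cytb windows begin at base 2 and hold 5 differences.
mt-Nd4l: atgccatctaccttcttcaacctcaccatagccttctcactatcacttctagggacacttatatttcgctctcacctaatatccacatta
Gm10222: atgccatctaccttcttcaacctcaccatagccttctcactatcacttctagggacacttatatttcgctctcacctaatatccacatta
mt-Nd3: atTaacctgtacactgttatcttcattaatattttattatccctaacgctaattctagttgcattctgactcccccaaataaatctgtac
Gm28438: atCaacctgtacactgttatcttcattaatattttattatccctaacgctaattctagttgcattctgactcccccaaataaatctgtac
mt-Cytb: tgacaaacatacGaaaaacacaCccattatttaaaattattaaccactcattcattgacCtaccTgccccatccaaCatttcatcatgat
Gm11410: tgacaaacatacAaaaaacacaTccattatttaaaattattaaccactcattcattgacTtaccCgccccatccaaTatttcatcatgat

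Complex IV, cytochrome c oxidase, passes electrons to oxygen, and its 3 largest subunits come from chrM. mt-Co1 (chrM 5328 to 6872), the catalytic subunit, had FPKM of 9533 in A, 1361 and 4695 in B1 and B2, 2131 and 2465 in C and D, 2236 in E and 1633 in F. mt-Co2 (chrM 7013 to 7696), which receives the electrons from cytochrome c, had 4262 in A, 241 and 1272 in B1 and B2, 516 and 728 in C and D, 690 in E and 377 in F. mt-Co3 (chrM 8607 to 9390) had 3522 in A, 195 and 1070 in B1 and B2, 387 and 623 in C and D, 605 in E and 232 in F. For all 3 genes A stood far above the other libraries, D and E stood above C, and B1 and not F was the lowest.

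Complex V makes ATP from the proton gradient, and mt-Atp6 encodes the subunit that forms the proton path with the ring of the motor. mt-Atp6 (chrM 7927 to 8607) had FPKM of 3317 in A, 284 and 1061 in B1 and B2, 413 and 700 in C and D, 706 in E and 235 in F. mt-Atp8 (chrM 7766 to 7969) had 2905 in A, 317 and 2057 in B1 and B2, 921 and 1236 in C and D, 1143 in E and 469 in F. At 204 nt mt-Atp8 is shorter than the mean fragment of every library, 264 nt in A to 339 nt in B1, and its span overlaps that of mt-Atp6. The complex I genes mt-Nd3 and mt-Nd4l followed the same order of libraries as mt-Atp8. mt-Nd3 (chrM 9459 to 9806) had 644 in A, 37.2 and 235 in B1 and B2, 84.6 and 154 in C and D, 122 in E and 50.2 in F. These were the lowest listed FPKM of any chrM protein gene in all 7 libraries. mt-Nd4l (chrM 9877 to 10173) had 1706 in A, 100.03 and 656 in B1 and B2, 242 and 487 in C and D, 459 in E and 162 in F. At 297 nt mt-Nd4l is shorter than the mean fragment of B1 (339 nt) and of D (308 nt).

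**Figure D2:**
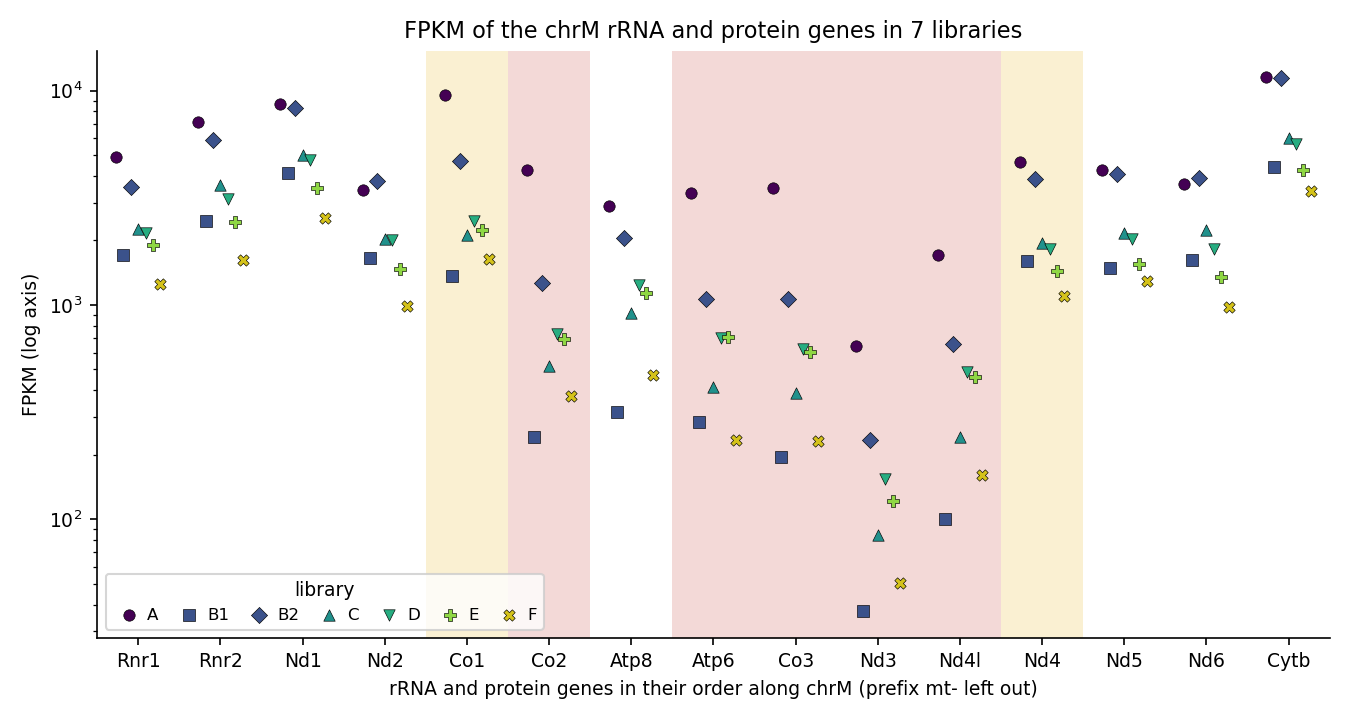
FPKM on a log axis (y) of the 15 rRNA and protein genes in their order along chrM (x), with 1 marker for each of the 7 libraries; red shading marks genes with a copy of the whole gene on chromosome 1 and yellow shading genes with a copy of a part. In the red area and in mt-Atp8 the libraries spread further apart and D and E lie above C, whereas outside the shading C lies above D and E.

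For A against F and for B2 against B1, differences were larger in the genes with a whole copy than in the 7 genes without one. mt-Atp8, which has no annotated copy of at least 100 nt but overlaps mt-Atp6, was set apart. Their FPKM in A was 10.6 (mt-Nd4l) to 15.2 (mt-Co3) times that in F, with a median of 12.8 over the 5 genes, against 3.30 (mt-Nd5) to 4.41 (mt-Rnr2) with a median of 3.50 over the 7 genes without a copy. Of the genes copied in part, mt-Co1 lay between these groups at 5.84, and mt-Nd4 lay within the range of the 7 genes at 4.21. The copy covers 31.3% of mt-Co1 and 63.6% of mt-Nd4. mt-Atp8 was at 6.19. The libraries of segment B differed in the same way. B2 was 3.74 (mt-Atp6) to 6.55 (mt-Nd4l) times B1 in genes with a whole copy, with a median of 5.48, and 2.001 (mt-Nd1) to 2.75 (mt-Nd5) times B1, with a median of 2.39, in the 7 genes without one. mt-Co1 was between the groups at 3.45, mt-Nd4 within the range of the 7 genes at 2.42, and mt-Atp8 at 6.50. In both contrasts the 5 genes and the 7 genes thus took ranges that did not overlap, but the contrast of A with F rested on 1 library each. With mt-Atp8 counted among the genes without a copy of at least 100 nt, the ranges of B2 to B1 overlapped, at 2.001 to 6.50 against 3.74 to 6.55. The grouping was also made after values had been seen, so the separation is a description and not a test. This did not hold for every pair of libraries. The ratio of C to F was 1.37 (mt-Co2) to 1.75 (mt-Atp6) in the 5 genes, with a median of 1.67. In the 7 genes it was 1.67 (mt-Nd5) to 2.30 (mt-Nd6), with a median of 1.95. Genes with a copy lie next to each other on chrM, so position on chrM and the presence of a copy cannot be told apart here. The 5 genes with a whole copy were 297 to 784 nt long and the 7 genes without one 519 to 1824 nt. Over the 15 genes, Spearman's rho with length was -0.55 for the ratio of A to F and -0.57 for that of B2 to B1, and rho with GC content was 0.025 and 0.15. Over the 8 genes without an annotated copy of at least 100 nt at this identity, mt-Atp8 included, rho with length was -0.55 and 0.024. With GC content it was -0.79 and -0.31 over these 8. These correlations are across genes of the same libraries, which are not independent replicates. The part of length in the ratios was not tested.

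**Figure D3:**
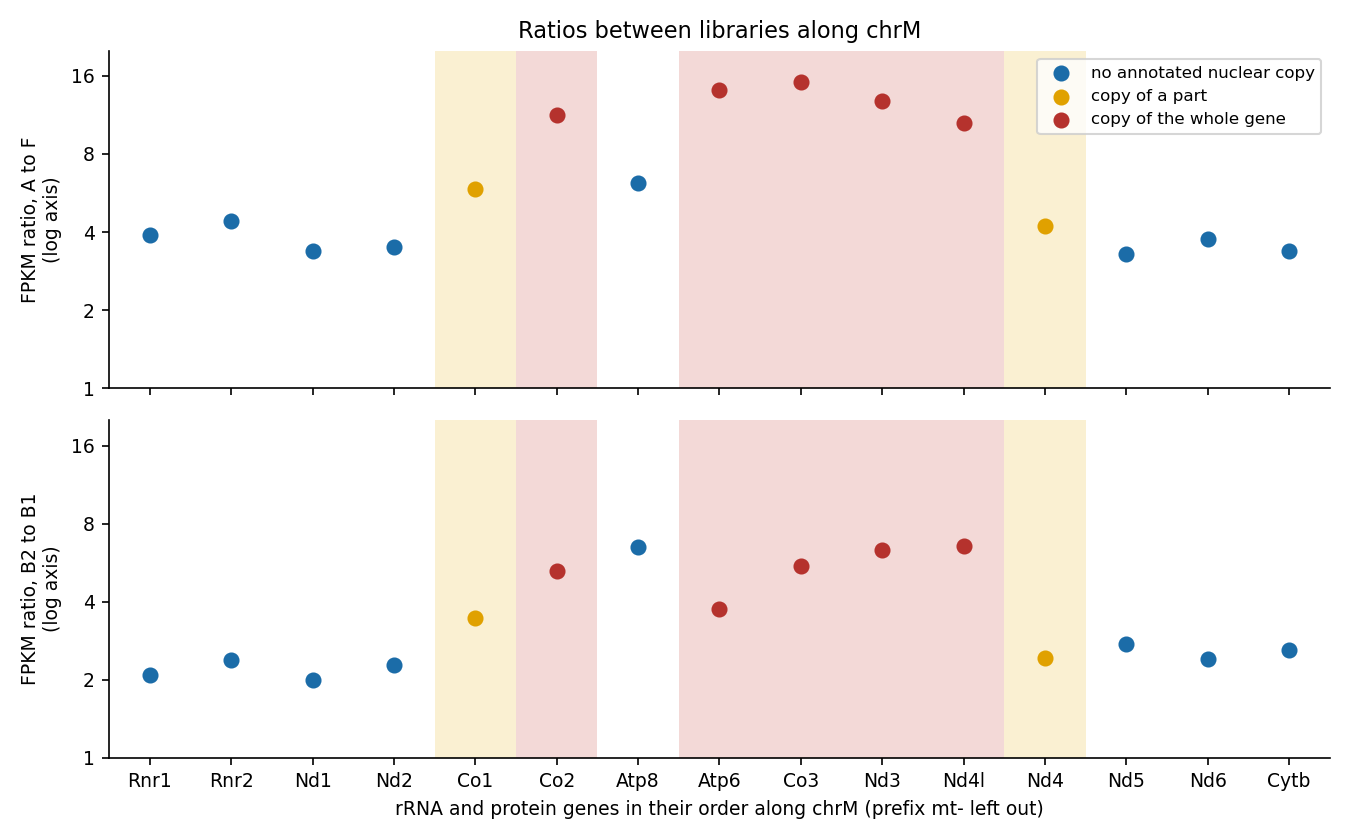
Ratio of the FPKM in A to that in F (upper panel) and in B2 to that in B1 (lower panel), on log axes, for the 15 rRNA and protein genes in their order along chrM (x axis), coloured by the extent of their annotated copy on chromosome 1. The 5 genes with a whole copy reach 10.6 to 15.2 in the upper panel, and the 7 genes without a copy, mt-Atp8 not counted, stay between 3.30 and 4.41.

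The order of C and D also divided the genes. With intervals that did not overlap, all 5 genes with a whole copy, mt-Co1 and mt-Atp8 were higher in D, by 1.16 (mt-Co1) to 2.01 times (mt-Nd4l). The 7 genes without a copy and mt-Nd4 were higher in C, where the ratio of D to C ran from 0.817 (mt-Nd6) to 0.984 (mt-Nd2). Among all 11409 genes whose widest interval was at most 50% of the mean FPKM, called classifiable here, 18.8% were higher in D than in C and 15.5% were higher in C by this criterion. From the highest library to the lowest, mt-Co1, mt-Co2, mt-Atp8, mt-Co3, mt-Nd3 and mt-Nd4l shared the order A, B2, D, E, C, F, B1. mt-Rnr2, mt-Nd1, mt-Nd4 and mt-Cytb shared the order A, B2, C, D, B1, E, F, mt-Rnr1 and mt-Nd5 differed from it only in that E was above B1, and mt-Nd2 and mt-Nd6 only in that B2 was above A. For mt-Atp6 the order was A, B2, E, D, C, B1, F. Neighbours in these orders had intervals that did not overlap, with the exception of D and E in mt-Atp6. Limits of these intervals are given below. As a share of the chrM FPKM, the 5 genes with a whole copy made up 17.5% in A, 3.93% and 7.59% in B1 and B2, 5.41% and 8.94% in C and D, 10.6% in E and 6.43% in F.

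Of the copies on chromosome 1, Gm10222 was listed in the files, at chr1:24619243-24619539 of mm9. Its FPKM was 1641 in A, 90.4 and 613 in B1 and B2, 228 and 457 in C and D, 441 in E and 152 in F, which was 0.904 to 0.962 times that of mt-Nd4l in every library. Reads that fit both places equally well can be counted at either, and how the authors' mapping divided them is not given in the sources used here, so neither FPKM can be read as the level of 1 locus. The same limit applies to the FPKM, shares and orders of mt-Co2, mt-Atp6, mt-Co3 and mt-Nd3, and to the copied parts of mt-Co1 and mt-Nd4. With mt-Nd4l and Gm10222 summed, the ratio of A to F was 10.7 and that of B2 to B1 6.66. An unnamed gene of 144 nt, ENSMUSG00000078295 (chr1:24621347-24621490 of mm9), ends 1951 bases from the end of Gm10222, the same distance as that of Gm10925, the copy of mt-Atp6, in GRCm38. It had an FPKM of 2699 in A and 165 in F, a ratio of 16.4, beside 14.1 for mt-Atp6.

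**Figure D4:**
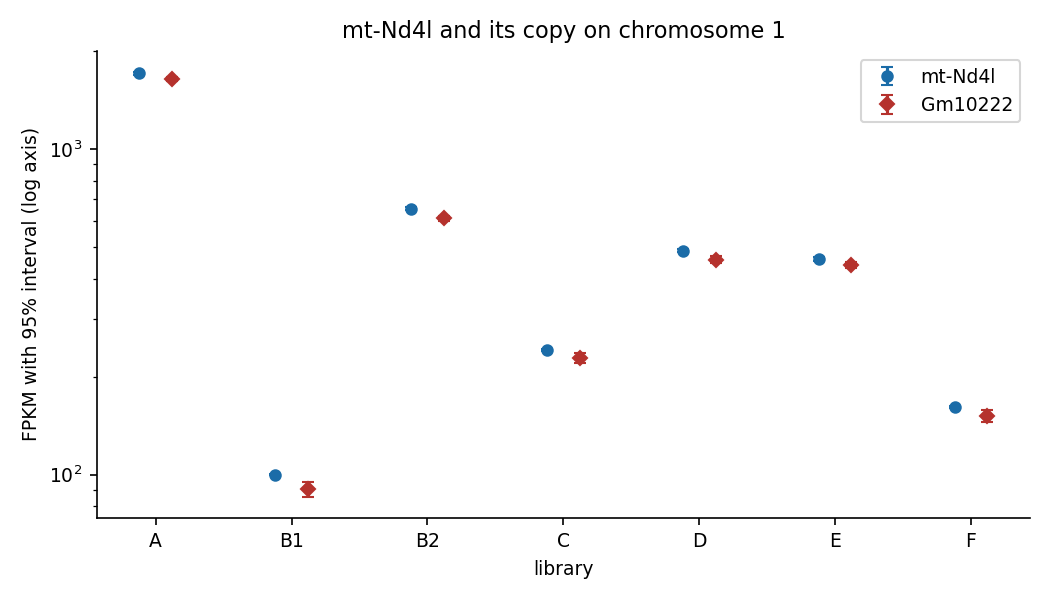
FPKM on a log axis (y) of mt-Nd4l (blue circles) and of its copy Gm10222 on chromosome 1 (red diamonds) in the 7 libraries (x), with the deposited 95% intervals, most of which are smaller than the markers. The 2 loci stay side by side over the range from 1706 (mt-Nd4l in A) to 90.4 (Gm10222 in B1).

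Less similar copies on other chromosomes were listed as well, with 8 loci at an identity of 88.6% to 97.6%. Gm13340 on chromosome 2 matched all 1545 bases of mt-Co1 at 97.6% identity and had an FPKM of 1811 in A, 102 and 618 in B1 and B2, 246 and 357 in C and D, 379 in E and 153 in F. Gm11407 on chromosome 4, which matched 1058 bases of mt-Nd5 at 92.3% identity, had 179 in A, 10.5 and 50.0 in B1 and B2, 17.6 and 34.7 in C and D, 30.3 in E and 7.34 in F. Both loci put D and E above C, the order of mt-Co1 but not of mt-Nd5. Not all listed copies had D above C. Gm11512, also a copy of mt-Co1, had 6.99 in C and 6.78 in D. Gm12155, a copy of mt-Co2, had 0.928 in C and 0.542 in D. The intervals of C and D overlapped in both, and D was above C in the other listed copies. Together with Gm10222, all 9 listed copies had a larger ratio of A to F than their chrM gene, from 6.86 for Gm11408 to 24.3 for Gm11407 with a median of 14.9. The ratio of B2 to B1 was also larger than that of the chrM gene in 9 of 9. Gm13339, Gm13340 and Gm13341 lie close together on chromosome 2, as do Gm11407, Gm11408 and Gm11410 on chromosome 4. The 9 loci are thus not separate observations, and all come from the same libraries. Gm12155, Gm11408 and Gm11410 had only 0.0702, 0.490 and 0.358 FPKM in F, so their ratios are poorly measured. In the 6 copies with a mean of at least 10 FPKM both ratios were larger than in the chrM gene, and that of A to F was 10.8 to 24.3. All 9 loci share sequence, and so possibly reads, with chrM genes. Gm11410, the copy of mt-Cytb, had an FPKM of 3.09 in A where mt-Cytb had 11532.

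**Figure D5:**
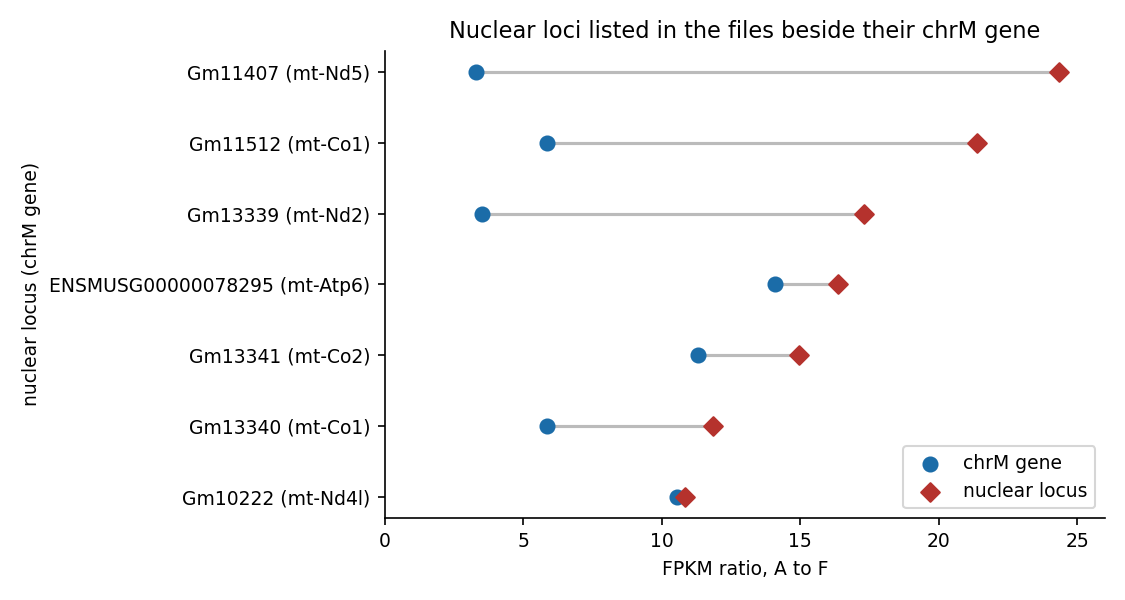
Ratio of the FPKM in A to that in F (x axis, linear) for 7 nuclear loci with a mean of at least 10 FPKM (red diamonds) and for the chrM gene that each resembles (blue circles); ENSMUSG00000078295 is set beside mt-Atp6 by its distance from Gm10222. Each nuclear locus lies to the right of its chrM gene, from 10.8 against 10.6 for Gm10222 to 24.3 against 3.30 for Gm11407.

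Transfer RNAs are shorter than the RNA retained in the extraction, and their genes, of 59 to 75 nt, are shorter than the mean fragment. They made up 3.29% of the chrM FPKM in A, 0.780% and 1.13% in B1 and B2, 1.16% and 1.08% in C and D, 1.47% in E and 0.513% in F. The summed tRNA FPKM in A was 30.0 times that in F, compared with 4.19 for the rRNA genes and 4.61 for the protein genes. Of the tRNA genes, 5 were classifiable. mt-Ts1 had 597 in A, 41.0 and 101 in B1 and B2, 49.9 and 49.0 in C and D, 39.3 in E and 11.7 in F. mt-Ty had 462 in A, 8.86 and 138 in B1 and B2, 104 and 29.4 in C and D, 128 in E and 15.99 in F. mt-Te had 391 in A, 28.9 and 93.7 in B1 and B2, 42.6 and 53.3 in C and D, 39.8 in E and 13.6 in F. A was the highest library for all 3, which were also the 3 tRNA genes with the highest mean FPKM, and mt-Ty differed 15.6 times between B2 and B1. The other two, mt-Tl1 and mt-Tq, ran from 235 and 81.4 in A to 11.4 and 4.10 in F. The intervals of mt-Ts1 and mt-Tq spanned at most 0.132% of the FPKM, narrower than those of mt-Cytb, whose FPKM was far higher. For these 2 genes the intervals cannot be read as their precision. The same limit was seen in mt-Nd4l, whose interval in B1 was 99.5 to 100.5. Its copy Gm10222, also 297 nt long, had 85.7 to 95.1 there. The lowest means were those of mt-Td (0.242), mt-Tk (0.625) and mt-Tv (1.37), and none of these passed 4.55 in any library. The unnamed gene of chrM had 167 in A, 16.2 and 48.1 in B1 and B2, 36.1 and 17.9 in C and D, 34.2 in E and 10.3 in F.

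Libraries were also compared in pairs by intervals that did not overlap, the criterion the study used for transcripts, which carries no test and no variation between mice. Calls of mt-Ts1, mt-Tq and mt-Nd4l share the limit of their intervals given above. From A to B1 the interval went from 2.14% to 2.19% of the FPKM in mt-Co3 and from 2.07% to 2.98% in mt-Atp6. It went from 2.97% to 4.00% in mt-Atp8, from 1.44% to 1.28% in mt-Nd4 and from 1.11% to 4.21% in mt-Co2. The interval of mt-Co2 thus widened most, although the FPKM fell in all of them. Calls of mt-Co3, mt-Atp6, mt-Atp8 and mt-Nd4 are to be read with the same caution. The interval of mt-Nd6 was narrow as well, at 0.675% of its FPKM in B1 against 1.31% for mt-Nd2, a longer gene of similar FPKM. The filter for classifiable genes rests on the same intervals. It kept mt-Tq, with a mean FPKM of 24.0, and left out mt-Tm, with 34.2. The set of 20 genes carries this limit here and in the trend below. All 20 classifiable chrM genes were higher in A than in F, against 24.4% of all classifiable genes, and all 20 were higher in B2 than in B1, against 32.1%. All 20 were higher in A than in B1 (26.9% of all genes), and 18 were higher in A than in B2 (27.6%), where mt-Nd2 and mt-Nd6 were higher in B2 (51.3%). Against C, all 20 were lower in B1 (46.5% of all genes higher in C) and higher in B2 (15.2%). The library chosen for segment B thus sets the direction of its comparison with upper layer 5. From D to E, 16 genes were higher in D (17.3%) and mt-Ty was higher in E (27.7%), while mt-Atp6, mt-Te and mt-Tl1 overlapped. All 20 were higher in E than in F (25.0%).

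A trend across the 6 segments was then tested with limma on log2(FPKM + 0.1), with a linear and a quadratic term in segment position and Benjamini-Hochberg adjustment over the 11409 classifiable genes. It called 5 of the 20 classifiable chrM genes at an adjusted p of 0.05 or less, against 43.5% of all genes, and all 5 were lower in F (8.04% of all genes). These were mt-Nd1 (fitted log2 difference of F minus A -1.53, adjusted p = 0.0358), mt-Nd2 (-1.58, adjusted p = 0.0477), mt-Nd4 (-1.77, adjusted p = 0.0418), mt-Nd6 (-1.74, adjusted p = 0.0380) and mt-Ts1 (-3.99, adjusted p = 0.0318). The residual SD on the log2 scale was 0.387 to 0.492 for the 4 protein genes. mt-Rnr2 (-1.74, adjusted p = 0.0517), mt-Rnr1 (-1.46, adjusted p = 0.0744), mt-Cytb (-1.53, adjusted p = 0.0788) and mt-Nd5 (-1.46, adjusted p = 0.106) did not pass. The genes with a whole copy had fitted differences of -1.55 (mt-Nd4l) to -2.18 (mt-Co3), with adjusted p-values of 0.229 to 0.511 and residual SDs of 1.21 to 1.48. Their residual SDs were thus larger than those of the 4 called protein genes, and so were their ratios of A to F in the libraries themselves, while the called tRNA gene mt-Ts1 had a ratio of 51.1. The libraries of segment B decided these counts. Without B1 18 of 20 genes were called, all lower in F, mt-Ty and mt-Nd4l being the exceptions, against 57.9% of all genes. Without B2 limma called none of the 20, against 36.9% of all genes. At an unadjusted p of 0.05 or less it called 5 of the 20, and 5735 of all 11409 genes.

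The libraries were permuted exactly, 2-sided, to test 10 relations of the composition with position and insert size. The chrM percent of the summed FPKM had a Pearson's r of -0.79 with segment position (exact permutation p = 0.0377, adjusted p = 0.188) while Spearman's rho was -0.85 (exact p = 0.0246, adjusted p = 0.116). It did not pass the adjustment, and without A and F r was -0.51 over 5 libraries. Without B1 r was -0.95 over 6 libraries (exact permutation, adjusted p = 0.0278). The complex I percent of the protein genes had an r of 0.82 with the mean internal insert size of the libraries, 164 nt in A to 239 nt in B1 (exact permutation p = 0.0298, adjusted p = 0.188), and Spearman gave 0.81 (exact p = 0.0349, adjusted p = 0.116). For complex IV r was -0.74 (exact permutation p = 0.0774, adjusted p = 0.258) and rho -0.81 (exact p = 0.0349, adjusted p = 0.116). Without B1 and D these were 0.83 and -0.83 over 5 libraries, and with segment position the same percents had an r of 0.097 and -0.21 (exact permutation, adjusted p = 0.848 and 0.757). The tRNA percent had an r of -0.57 with position and -0.58 with insert size (both exact permutation, adjusted p = 0.356). No relation of the rRNA percent passed either, nor did that of the chrM percent with insert size (r = -0.37, exact permutation, adjusted p = 0.600). Insert size differed between libraries, and its part in the composition was not tested.

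Nuclear genes of the respiratory chain had smaller differences between A and F in the median. Of 76 nuclear subunit genes 65 were classifiable, and the trend called 10, against 43.5% of all genes. Of these 2 were lower in F (8.04% of all genes) and 8 higher (35.5%). The median log2 difference of F minus A of the 65 genes was -0.62, beside 0.51 for all classifiable genes. It was -3.01 for the 20 classifiable chrM genes, which include 5 tRNA genes and the 5 genes with a whole copy. By complex, the chrM medians were -1.91 (I), -1.76 (III), -3.50 (IV) and -3.22 (V), over 7, 1, 3 and 2 genes. Those of the nuclear subunits were -0.89, -0.65, -0.71 and -0.34. Every chrM gene of complex IV has a whole or partial copy, and complex V is mt-Atp6, with a whole copy, and mt-Atp8. For complexes IV and V, the complex and the presence of a copy thus cannot be told apart. The subunit with the highest level in each complex is given here as an example. Cox4i1 of complex IV had an FPKM of 739 in A, 408 and 556 in B1 and B2, 550 and 518 in C and D, 446 in E and 450 in F, and Uqcrq of complex III had 228 in A, 103 and 131 in B1 and B2, 135 and 148 in C and D, 116 in E and 110 in F. For Ndufb9 of complex I the FPKM was 248 in A and 199 in F, and for Atp5b, the catalytic subunit of complex V, 246 in A and 495 in F. None of these 4 passed the trend test (limma, adjusted p = 0.109 to 0.851). Sdha, the flavoprotein of complex II, rose from 50.5 in A to 161 in F (limma, adjusted p = 0.00592). In segment B the nuclear subunits had a median log2 difference of B2 minus B1 of 0.56, beside -0.0014 for all classifiable genes. It was 1.58 for the same 20 chrM genes, with 1.28 for those of complex I and 1.38 for mt-Cytb. For the chrM genes of complexes IV and V it was 2.40 and 2.30.

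Of the genes that maintain mitochondrial DNA or make, process and stabilise its RNA, 42 were listed and 30 classifiable. The trend called 12, against 43.5% of all genes, and all 12 were higher in F (35.5% of all genes). The median log2 difference of F minus A of the 30 was 0.65, near the 0.51 of all classifiable genes, and 6 were lower in F than in A. Of the genes named next, Lrpprc, Pnpt1, Mterf3, Rrm2b and Tfb1m had the largest differences among those called. Lrpprc, which stabilises mitochondrial messenger RNAs, had 3.85 in A, 7.20 and 7.84 in B1 and B2, 15.3 and 15.0 in C and D, 15.5 in E and 16.4 in F (limma, adjusted p = 0.00411), so that it was lowest in A. Its partner Slirp had 30.0 in A, 6.02 and 23.0 in B1 and B2, 23.4 and 18.1 in C and D, 24.9 in E and 17.7 in F and did not pass (limma, adjusted p = 0.918). The mitochondrial RNA polymerase Polrmt lay between 4.16 in B2 and 6.43 in B1 (limma, adjusted p = 0.571). Tfam, which packages mitochondrial DNA and starts its transcription, ranged from 6.32 in B1 to 17.8 in E and was not classifiable. Pnpt1, a mitochondrial RNA-degrading enzyme, rose from 0.802 in A to 3.12 in F (limma, adjusted p = 0.0163). Mterf3 (1.67 to 5.89), Rrm2b (0.970 to 2.89), a ribonucleotide reductase subunit that supplies precursors for mitochondrial DNA, and Tfb1m (0.769 to 2.10), which modifies mt-Rnr1, rose likewise (limma, adjusted p = 0.00592, 0.00655 and 0.00837).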

How the data were processed

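Libraries of poly(A) RNA from the 7 S1 samples were sequenced from both ends by the authors, who mapped 50 nt per end (75 nt in part of F) to mm9 with TopHat 1.0.13 and estimated FPKM with 95% intervals for Ensembl release 57 models with Cufflinks 0.8.3, per the submitters' processing notes and the methods of the study. The FPKM values were deposited per gene and per transcript. The coverage deposited with the transcripts, which the authors did not scale for library size, served only to estimate depth, and how reads with several places were divided is not given in the sources used here. The de novo models were not used, since they held no feature on chrM.

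FPKM of a gene listed at more than 1 place in a library were summed, and a gene without an entry was set to 0. Genes were called classifiable if the widest interval was at most 50% of the mean FPKM. The trend was fitted with limma 3.58.1 (R 4.3.3) on log2(FPKM + 0.1), a scale that understates differences of low genes, and a call was an adjusted p of 0.05 or less. Tested on simulated data for this comparison with 11409 genes, the fit recovered 22% of the genes with a 2-fold, 60% with a 4-fold, 66% with an 8-fold and 80% with a 16-fold change from A to F. It called 9 unchanged genes. Changes were linear, and noise was drawn for each gene on its own from the spread of B1 and B2 over all genes. The 20 classifiable chrM genes were all higher in B2 (median log2 difference 1.58), so these percents do not give their recovery. For relations the 7 libraries were permuted exactly, with adjustment over 10 relations (5 measures against 2 axes). Symbols, strand and copies came from GENCODE M21 (GRCm38), used by identifier. All 35 named chrM genes had the same span there as in the files. Copies were found with BLAST 2.17.0 among the transcripts (identity at least 99%, at least 100 nt, whole copies over at least 90% of the gene). The members, lists and tests were chosen with earlier results of these data known. Named were all protein and rRNA genes, the tRNA genes that were classifiable or among the 3 highest or 3 lowest, the highest subunit gene of each complex, Tfam, Polrmt, Lrpprc, Slirp and the 5 called genes of mitochondrial DNA and RNA with the largest difference, and the listed copies on chromosome 1. Other copies were named after their values were seen. Of the lists, Prorp, Hbb-b1 and Hbb-b2 matched no symbol.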

Additional observations from a re-analysis of the deposited data

How the results depend on the processing

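The count of chrM genes called by the trend depended on the fit. It was 2 with a pseudocount of 0.01 (40.6% of all genes called), 8 of 34 with a filter on a mean of at least 1 FPKM in place of interval width (43.7%), 2 of 36 (mt-Tm and mt-Tr) with no filter (25.4%), 8 with libraries scaled by the median of ratios (33.0%) and 0 with the 6 segments as groups (2 at an unadjusted p of 0.05 or less), where only B1 and B2 give a residual. It ranged from 0 to 18 when 1 library of segment B was left out (36.9% and 57.9% of all genes). The median of ratios moved the median of all genes by -0.58 (log2, F minus A) and scaling to the same sum outside chrM by -0.17. All 200 alternative fits of the 20 genes kept a fitted level lower in F. These fits are not independent checks, because all use the same libraries of A and F. A change of filter also leaves the fitted value of a gene as it was. Across all classifiable genes the calls were 917 lower and 4051 higher in F as deposited, 1781 and 1979 with the median of ratios and 1094 and 2860 with the same sum outside chrM, 2132 in all with the linear term only, and none with the segments as groups (2111 at an unadjusted p of 0.05 or less).

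The chrM percent passed with segment position without B1 (r = -0.95) and with B1 and B2 averaged (r = -0.92, exact permutation, adjusted p = 0.0278 for both), and r was -0.76 without B2. For relations that did not pass under any setting, r of the rRNA percent with position was -0.12 without the genes with a nuclear copy and -0.00065 with FPKM times span or times transcript length, that of the rRNA percent with insert size was -0.41 without those genes, and that of the complex I percent with position was -0.14. Leaving out the genes with a nuclear copy and weighting by transcript length were chosen after seeing the data. The ratio of A to F of the chrM percent was 3.87 to 6.49 and that of B2 to B1 2.26 to 2.61 over 7 alternatives, with the highest values from FPKM times genomic span, which counts introns of nuclear genes. Leaving out a library of segment B gave 7.76% or 18.2% for that segment. Of the 20 classifiable chrM genes, 0 were higher in B2 than in A with the median of ratios (36.1% of all classifiable genes). With the same sum outside chrM 5 were (57.4% of all classifiable genes). The mean share of mt-Cytb was 19.1% of the protein and rRNA genes alone and 19.5% with FPKM times span. No paired analysis was possible because only segment B has more than 1 library. Depth is an estimate, and with 1 library for 5 of 6 segments no variation between mice could be measured there.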
